A study of Drosophila melanogaster with 3 samples.

Results

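Of the pair-rule genes, a chosen set of 8 was examined for binding of Grain in Drosophila melanogaster embryos: hry (hairy, also written h), run, ftz, prd, odd, slp1, slp2 and opa. They were 8 of the 13945 protein-coding genes of the annotation, and a peak was counted for a gene when its summit lay in the gene body or within 5000 bp on either side. These windows held 8 of the 6580 peaks of the authors' optimal list and 49 of the 30000 peaks of their pooled list. Transcription factor ChIP-seq had been run on 3 biological replicates, all of one group, so that no conditions could be compared. Every replicate came from the grn-GFP strain, a transgenic line with GFP joined to the C-terminus of Grain, and was taken from whole embryos of 0 to 24 h with males and females pooled. Chromatin was recovered through the GFP tag, so the peaks report the tagged protein averaged over all tissues and stages of that day, and a stripe, a tissue or an hour cannot be read from them.

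Pair-rule genes divide the early embryo into its segments. Most are expressed in stripes in alternate segments, opa more broadly, under the control of gap genes and maternal factors, and together they position the stripes of segment polarity genes. Most are used again later, in the nervous system, gut, muscle or head. The hry protein is a basic helix-loop-helix repressor, run encodes a Runt-domain (Runx) factor, ftz a homeodomain protein and prd a factor with a paired domain and a homeodomain. The odd and opa products are zinc-finger proteins, opa being the fly member of the Zic family, and slp1 and slp2 are neighbouring genes for forkhead-domain proteins. Grain is a zinc-finger factor of the GATA family, whose members bind the core GATA. Here a GATA hexamer is A or T, then GATA, then A or G, read on either strand.

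Grain peaks of the optimal list were found at 5 of the 8 genes (62.5%), namely opa, slp2, hry, odd and run, and at none of ftz, prd and slp1. The same rule gave an optimal summit to 6831 of the 13945 protein-coding genes (49.0%). Ranks below count from 1, the strongest signal in a list, and the optimal list is the 6580 strongest peaks of the pooled list. The strongest pair-rule peak, in an intron of opa, ranked 342. Peaks at slp2, hry and odd followed at ranks 1276, 1292 and 1639, and the remaining optimal peaks at hry, slp2 and run lay between ranks 3165 and 6233. Of the 8 optimal summits, 7 lay more than 1000 bp from any transcription start site, and 4 lay beyond the 3′ end of their gene.

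The bases under the leading summits are shown because they differ in whether they hold the GATA hexamer. Each run is 101 bases of the plus strand of dm6, read from the RefSeq genome and centred on the summit. Capitals mark GATA hexamers or, in a window without one, the octamer GGTCACAC or the tetramer GATA. The windows are chr3R:4861260-4861360 in the opa intron, chr2L:3832455-3832555 upstream of slp2, chr3L:8683269-8683369 downstream of hry, chr2L:3600870-3600970 downstream of odd and chrX:20697812-20697912 downstream of run.
opa intron: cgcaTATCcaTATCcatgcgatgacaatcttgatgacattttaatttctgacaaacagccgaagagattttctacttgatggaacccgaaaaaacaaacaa
slp2 upstream: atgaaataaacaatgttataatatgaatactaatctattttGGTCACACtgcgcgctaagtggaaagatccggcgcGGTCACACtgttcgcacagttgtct
hry downstream: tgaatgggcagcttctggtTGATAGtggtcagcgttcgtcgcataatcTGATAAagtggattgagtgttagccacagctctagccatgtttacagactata
odd downstream: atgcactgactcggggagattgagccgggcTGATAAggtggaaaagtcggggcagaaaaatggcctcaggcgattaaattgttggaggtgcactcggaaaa
run downstream: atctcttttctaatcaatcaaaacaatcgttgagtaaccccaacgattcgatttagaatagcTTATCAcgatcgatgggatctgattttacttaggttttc
The hry window held 2 hexamers and those of odd and run 1 each, the nearest in each window within 18 bp of the summit, while the opa and slp2 windows held none.

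**Figure D1:**
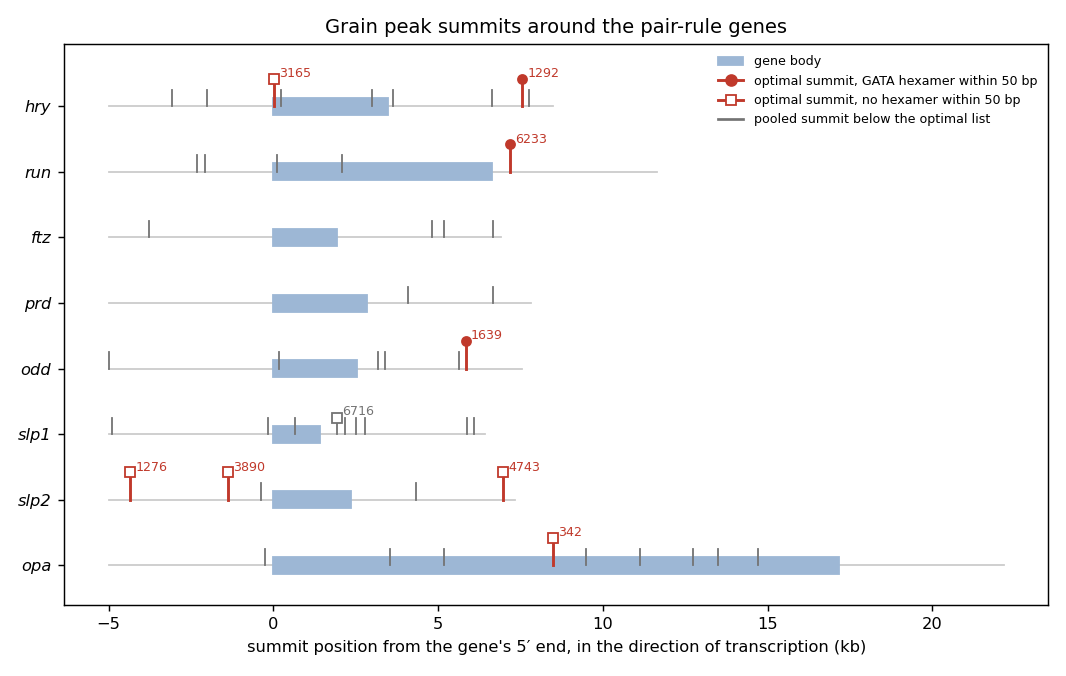
Position of each pooled summit relative to the annotated 5′ end of its gene, in kb along the direction of transcription, for the 8 pair-rule genes. Red marks are optimal summits with their rank and grey marks are weaker pooled summits. The optimal summits of hry, odd, run and slp2 lie mostly beyond or before the gene, that of opa lies inside it, and ftz, prd and slp1 have grey marks only, that of slp1 at rank 6716 with its rank written beside it.

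The zinc-finger gene opa (FBgn0003002, chr3R:4852813-4869979, plus strand, 17167 bp) carried the strongest pair-rule peak, at chr3R:4861008-4861530 with a signal of 514. Its summit lay 8497 bp from the 5′ end, in an intron of 14088 bp. It ranked 324, 760 and 282 in replicates 1, 2 and 3, a mean of 455 ± 265 (SD, n = 3). All replicates thus placed it among their strongest 6580 peaks, and replicate 2 placed it lower than the other replicates did. The nearest GATA hexamer was 136 bp from the summit, and the summit window held 2 GATA tetramers that were not part of a hexamer. The opa window held 8 further pooled peaks, 7 of them in the gene body and 1 in front of the gene, 256 bp from the 5′ end at rank 19430. All 8 ranked 11831 or weaker. Beyond the window, 2 optimal peaks with a hexamer lay within 10000 bp upstream of opa, at chr3R:4846615-4846816 (rank 2947) and chr3R:4847223-4847428 (rank 4256), and had opa as the nearest protein-coding start.

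The forkhead gene slp2 (FBgn0004567, chr2L:3836840-3839185, plus strand) had 3 optimal peaks, the most of the 8 genes. The strongest, at chr2L:3832381-3832643 with a signal of 303, lay 4335 bp upstream of slp2 in the stretch between slp1 and slp2. It ranked 1079, 2302 and 1355 in the replicates (mean 1579 ± 641, SD, n = 3). Its summit was 5406 bp past the 3′ end of slp1 and so 406 bp outside the window of that gene, which decides that slp2 is counted and slp1 is not. The window held no GATA tetramer at all and 2 copies of GGTCACAC, a core promoter element known as Motif 1, with the nearest annotated start, that of slp2, 4335 bp away. Among the other 6572 optimal peaks, 49 (0.746%) had at least 1 copy and 1 had 2 or more. Of the 3206 other optimal peaks over 1000 bp from a start site, 2 had a copy. The octamer was searched for after it had been seen in this window, so these counts describe the window and test nothing.

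The second slp2 peak, at chr2L:3835230-3835689 with a signal of 158, had its summit 1380 bp upstream of the gene. It ranked 3697, 14684 and 3089 (mean 7157 ± 6526, SD, n = 3), so that replicate 2 placed it far below the others. The third, at chr2L:3843594-3844053 with a signal of 140, lay 4639 bp past the 3′ end and 1892 bp from the start of the non-coding gene lncRNA:CR44983. It ranked 5724, 5795 and 5700 (mean 5740 ± 49.4, SD, n = 3), the narrowest spread of ranks among the 8 peaks. Their windows, chr2L:3835410-3835510 and chr2L:3843774-3843874, are shown because neither has a hexamer and they differ in the tetramer.
slp2 at 1380 bp upstream: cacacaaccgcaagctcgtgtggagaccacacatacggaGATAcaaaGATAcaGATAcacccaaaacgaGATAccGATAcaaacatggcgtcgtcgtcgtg
slp2 downstream: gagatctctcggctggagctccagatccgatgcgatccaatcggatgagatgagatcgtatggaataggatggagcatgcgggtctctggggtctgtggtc
The first held 5 GATA tetramers, each followed by C and so none a hexamer. Of the other 6572 optimal windows, 213 (3.24%) had 5 or more GATA tetramers and 42 (0.639%) had 5 or more copies of GATAC. The second held no GATA tetramer, and its nearest hexamer was 69 bp from the summit. The whole slp2 window contained 25 hexamers, 2.02 per kb, yet none lay within 50 bp of any of its 5 pooled summits.

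The bHLH repressor gene hry (FBgn0001168, chr3L:8675759-8679253, plus strand) had 2 optimal peaks of different kinds. The stronger, at chr3L:8683148-8683429 with a signal of 301, lay 4066 bp past the 3′ end and had a hexamer 1 bp from its summit. It ranked 1347, 873 and 1579 (mean 1266 ± 360, SD, n = 3) and was the only one of the 8 peaks that replicate 2 ranked highest. The weaker, at chr3L:8675557-8676016 with a signal of 181, had its summit 28 bp inside the gene, in the annotated 5′ UTR. It ranked 4374, 10753 and 1675 (mean 5601 ± 4662, SD, n = 3), with no hexamer in its window and the nearest one 221 bp away. The distal hry peak therefore ranked above the promoter peak in the pooled list, by 1292 against 3165, and did so in every replicate. Over all optimal peaks the classes were close, with median replicate ranks of 3190.5, 3400 and 2966.5 for peaks over 1000 bp from a start and 2853, 2833.5 and 3019 for peaks within 500 bp of one.

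The zinc-finger gene odd (FBgn0002985, chr2L:3604224-3606756, minus strand) had 1 optimal peak, at chr2L:3600760-3601031 with a signal of 267. It lay 3304 bp past the 3′ end, ranked 1712, 2392 and 1267 (mean 1790 ± 567, SD, n = 3) and had a hexamer 18 bp from the summit. A further odd peak in the 5′ UTR, 165 bp from the start, ranked 7471 and stayed below the optimal list. Its replicate ranks were 7153, 29560 and 5324, so that it was near the end of the list in replicate 2. The Runx gene run (FBgn0003300, chrX:20690670-20697321, plus strand) had the weakest of the 8 peaks, at chrX:20697632-20698091, 541 bp past the 3′ end with a hexamer 15 bp from the summit. Its signal was 115, against a lowest signal of 109.7 in the optimal list. It ranked 5288, 10052 and 7099 (mean 7480 ± 2405, SD, n = 3), and it was among the strongest 6580 in replicate 1 alone. A second run peak with a hexamer, in an intron, ranked 7813.

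The forkhead gene slp1 (FBgn0003430, chr2L:3825675-3827099, plus strand) had no optimal summit but 9 pooled peaks, as many as hry and opa. The strongest, at chr2L:3827377-3827836, ranked 6716 with a signal of 108 and was the first pair-rule peak below the optimal list. It ranked 6015, 20183 and 5198 and lay 508 bp past the 3′ end. Its window, chr2L:3827557-3827657, is shown as the nearest one outside the list, with its GATA tetramers in capitals, the last of them read on the minus strand in a palindrome.
slp1 downstream: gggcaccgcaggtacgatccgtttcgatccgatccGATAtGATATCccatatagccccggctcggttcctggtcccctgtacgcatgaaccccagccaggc
It held 3 tetramers and no hexamer, and 1 copy of CAGGTA, the core of sites of the zygotic activator Zelda. A weaker slp1 peak at rank 10202 overlapped the same replicate peaks.

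The homeodomain gene ftz (FBgn0001077, chr3R:6864324-6866244, plus strand) had 4 pooled peaks, the strongest at chr3R:6869269-6869728 and rank 14002. That peak lay 3255 bp past the 3′ end and ranked 19259, 4043 and 9696, so that it was among the strongest 6580 in replicate 2 only. The nearest optimal summit to ftz was 27541 bp away, at rank 3546. The ftz gene sits between the Hox genes Scr and Antp, whose windows shared no base with that of ftz. Scr had 1 optimal summit (rank 5529) and Antp 5 (best rank 3125). The paired-domain gene prd (FBgn0003145, chr2L:12082995-12085827, minus strand) had the fewest peaks, 2 in the pooled list, the stronger at rank 24059 with a signal of 30.0. That peak was nearest to the start of lncRNA:CR44591, 445 bp away, and its nearest protein-coding start was that of CG14947. It ranked 11830 in replicate 1 and 26775 in replicate 3 and overlapped no peak of replicate 2. Whichever peak was strongest in the prd window of each replicate ranked 11830, 16046 and 17181, outside the strongest 6580 of each. These 3 ranks are not those of a single peak. The nearest optimal summit was 35947 bp from prd.

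**Figure D2:**
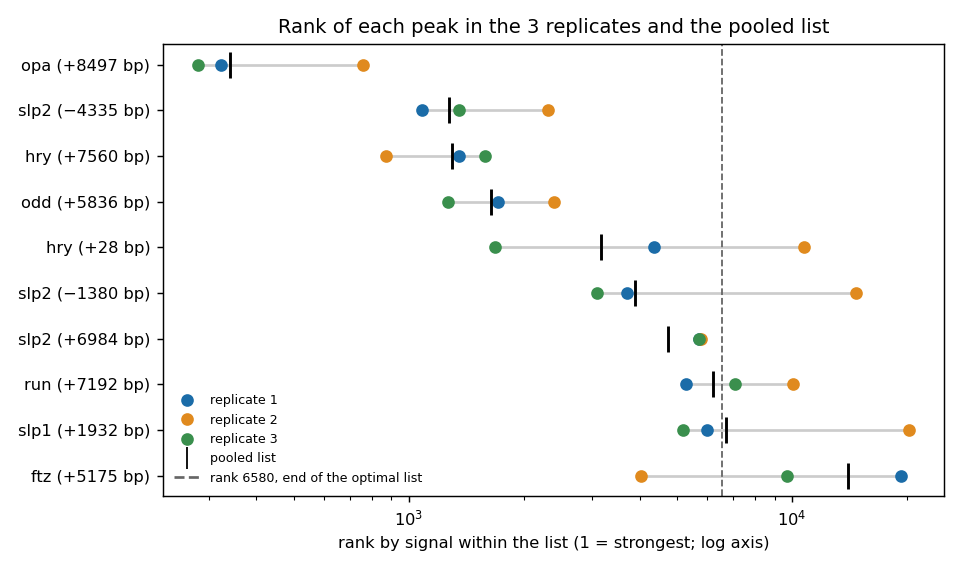
Rank by signal of the 8 optimal pair-rule peaks and of the strongest slp1 and ftz peaks, on a log axis, with the distance from the 5′ end in brackets. Points are the 3 replicates, black bars the pooled list and the dashed line rank 6580. The opa peak lies furthest left, with ranks of 282 to 760, and the slp2 peak at 6984 bp has its points almost on one another.

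In all 3 replicates, 5 of the 8 peaks (62.5%) shared at least 1 bp with a peak among the strongest 6580, against 4457 of the other 6572 (67.8%). The optimal list was made from the same replicates, so this overlap is no independent check. The 4 strongest peaks and the downstream slp2 peak were the 5. Replicate 2 gave the lowest rank to 7 of the 8 peaks. It did so for 2712 of the other 6572 peaks (41.3%) and for 1514 of the 3206 others over 1000 bp from a start site (47.2%). Summit positions moved by at most 62 bp from the pooled summit, at opa and run in replicate 1, and by at most 8 bp at the downstream slp2 peak. The shift of 62 bp is more than the 50 bp searched for motifs on either side of a summit. Taking the strongest 6580 peaks of each replicate in place of the optimal list, 6 of the 8 genes had a summit in replicate 1, 5 in replicate 2 and 6 in replicate 3. The shares of all protein-coding genes were 50.3% in replicate 1, 53.9% in replicate 2 and 47.8% in replicate 3. The genes hry, odd, slp2 and opa had one in all replicates, run and slp1 in replicates 1 and 3, ftz in replicate 2 and prd in none.

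The share of 62.5% depended on which genes it was set beside. No other protein-coding gene overlapped the window of any of the 8 genes, which held for 629 of the 13945 protein-coding genes (4.51%). Among those 629 genes, 27.3% had an optimal summit. Among the 8249 genes between 1425 and 17167 bp long, the range of the pair-rule genes, 52.8% had one. Both conditions together left 307 genes, of which 31.9% had one. With 1000 bp in place of 5000 bp, 3 of the 8 genes had an optimal summit, against 29.3% of all protein-coding genes, and with 10000 bp 6 of 8 did, against 63.8%. Among the 3290 strongest optimal peaks, 4 of the 8 genes had a summit, against 33.5%. The differences for the length set, the 2 other window widths and the 3290 strongest peaks each amount to about 1 gene. Those from the 629 isolated genes and from the 307 genes meeting both conditions are larger. The length and isolation sets were chosen after the data had been seen, and 8 genes are too few to place the share closely: 1 gene is 12.5 percentage points.

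**Figure D3:**
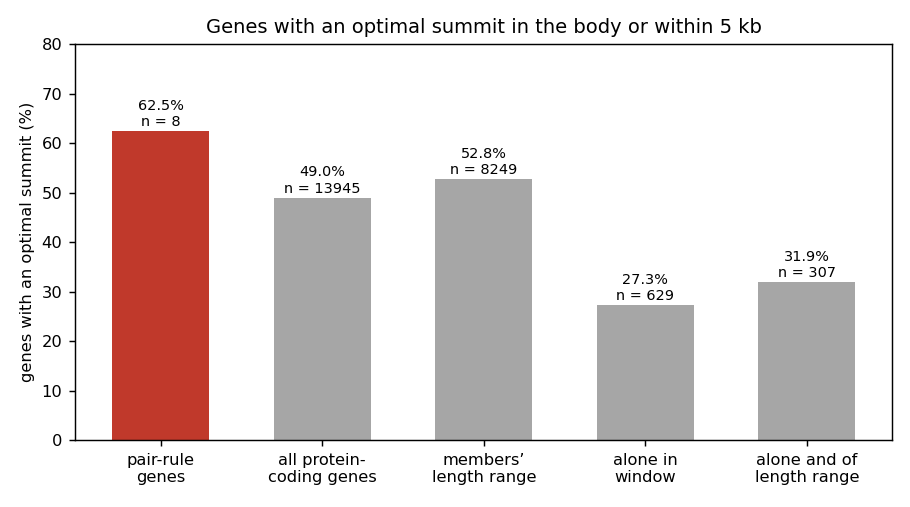
Share of genes with an optimal summit in the body or within 5 kb, in percent, for the 8 pair-rule genes and for 4 sets of protein-coding genes that follow the same rule. The bar of the pair-rule genes stands at 62.5%, and the others range from 27.3% for genes alone in their window to 52.8% for genes of the same length range.

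In the pooled list every one of the 8 genes had a summit, against 71.9% of all protein-coding genes. The number of pooled summits ranged from 2 at prd to 9 at hry, slp1 and opa, with a median of 5.5. The median was 3 over all protein-coding genes and 2 over the 307 genes alone in their window and of the same length range. Per length of sequence the windows of the 8 genes, 118 kb in all, held 6.76 optimal summits per 100 kb, against 4.91 over the chromosome arms, and 41.4 pooled summits per 100 kb, against 22.4. The arms include sequence far from genes. Per gene the mean number of optimal summits was 1.0, against 1.09 over all protein-coding genes and 0.681 over the 307 genes. The mean number of pooled summits was 6.12, against 4.19 over all protein-coding genes. Of the 49 pooled peaks, 19 (38.8%) shared bases with another pooled peak, as did 45.0% of all pooled peaks, and merging them left 39 separate stretches. Peaks overlapped a peak of all 3 replicates in 28 cases (57.1%, against 63.4% of all pooled peaks), of a pair of replicates in 14, of a single replicate in 5 and of none in 2.

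Position relative to the gene was mostly outside the promoter. Of the 49 pooled summits, 22 lay downstream of the gene, 12 upstream and 15 in the body, and of the 8 optimal ones 4, 2 and 2 in the same order. Within 500 bp of any start site lay 1 of the 8 optimal summits (12.5%, Wilson 95% interval 2.24 to 47.1), against 2613 of 6572 others (39.8%). Over 1000 bp from any start lay 7 of 8 (87.5%, 52.9 to 97.8), against 48.8% of the others. No other protein-coding gene overlapped any of the 8 windows, which holds for 4.51% of protein-coding genes. The other peaks were not matched for this spacing. By gene, hry alone had an optimal summit within 500 bp of a start site of its own, 1 gene of 8, whereas 17.5% of all protein-coding genes did. With the pooled list this number was 6 of 8, all but ftz and prd, against 39.1% of all protein-coding genes. Apart from the optimal hry summit, these promoter summits ranked between 7471 (odd) and 19430 (opa).

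The GATA hexamer was present within 50 bp of 3 of the 8 optimal summits (37.5%, Wilson 95% interval 13.7 to 69.4), against 3039 of 6572 others (46.2%). In equally wide windows set 500 bp to the right of the summits it was present at 1 of 8 pair-rule peaks (12.5%) and at 18.5% of the others. Among pooled peaks below the optimal list, 10 of 41 pair-rule summits (24.4%, 13.8 to 39.3) had one, against 28.5% of the others, and in the flanking windows the shares were 12.2% for pair-rule peaks and 16.3% for the others. The pair-rule intervals include the shares of the other peaks in both classes. Wilson intervals cover counting error only.

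**Figure D4:**
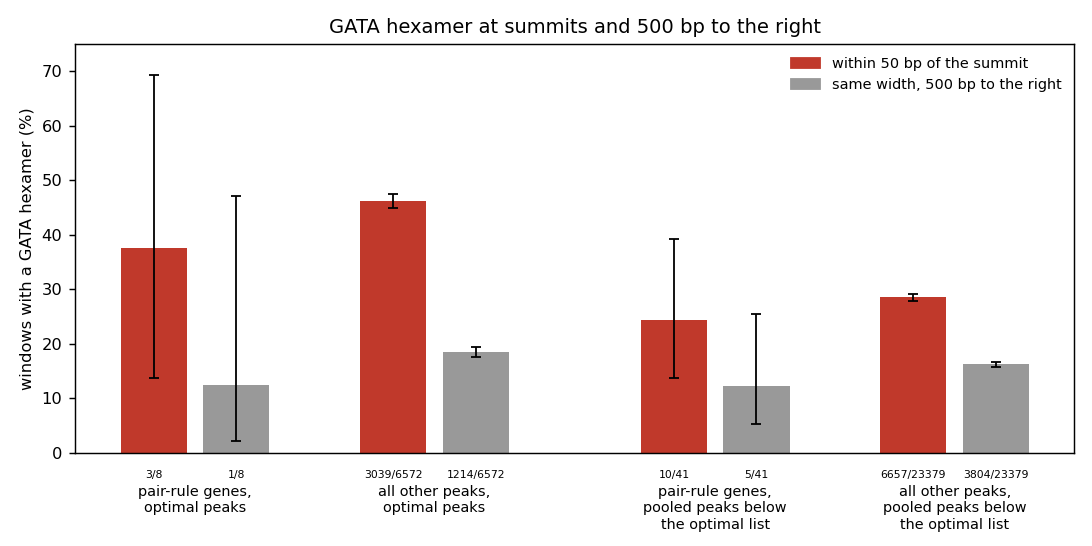
Share of 101-bp windows with a GATA hexamer on either strand, in percent, at summits (red) and 500 bp to the right (grey), for pair-rule peaks and for all other peaks. Error bars are Wilson 95% intervals and the counts stand under the bars. The red bar is higher than the grey one in each pair, and the intervals of the pair-rule bars are wide (13.7 to 69.4% at the 8 optimal summits).

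Within replicates the hexamer was compared between summits and their own flanks, over the pair-rule peaks among the strongest 6580. In replicate 1 it was present at 3 of 10 summits and in 1 flank. In replicate 2 it was present at 3 of 6 summits and in no flank. In replicate 3 it was present at 5 of 12 summits and in 2 flanks. The mean share was 40.6% at summits and 8.89% in flanks, and the summit share was higher in 3 of 3 replicates, by 31.7 ± 16.1 percentage points (mean ± SD, n = 3). An exact two-sided sign-flip permutation test over replicates gave p = 0.25, the smallest that 3 replicates allow. The genes hry, odd, slp2 and opa had such peaks in all 3 replicates, so much of the same DNA was counted again in each. The 3 values are therefore not independent observations of the sequence, and their SD reflects only which peaks and summits were called. Over all of the strongest 6580 peaks, pair-rule peaks included, the share was 44.9% at summits and 18.1% in flanks in replicate 1, 43.6% and 19.4% in replicate 2, and 44.1% and 17.7% in replicate 3. The differences over all peaks, 26.8, 24.1 and 26.4 points, lay inside the range of the pair-rule differences, which were 20, 50 and 25 points in replicates 1, 2 and 3.

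Most hexamers near the pair-rule genes were not under a summit. The 8 windows held 194 GATA hexamers, 1.64 per kb against 1.95 per kb over the chromosome arms. Of these, 4 (2.06%) lay within 50 bp of an optimal summit, against 1.66% of all hexamers of the arms, and 17 (8.76%, Wilson 95% interval 5.54 to 13.6) within 50 bp of a pooled summit, against 4.96% of all. Pooled summits were themselves denser in these windows, 41.4 against 22.4 per 100 kb over the arms. Counted per summit, 26.5% of the 49 pair-rule pooled summits had a hexamer, against 32.4% of all pooled summits. By gene the density ran from 1.09 per kb at prd to 2.10 per kb at ftz, the 2 genes with the weakest best peaks. Of the other motifs, GAGAG, a part of GAGA-factor sites, was present at 2 of the 8 optimal summits, the hry promoter and the downstream slp2 peak, against 986 of the 6572 others. CAGGTA and TAATTA, a homeodomain core, were present at none of the 8, against 2.71% (CAGGTA) and 5.77% (TAATTA) of the others. Over the pooled list CAGGTA was present at 3 of the 49 pair-rule summits (6.12%, Wilson 95% interval 2.10 to 16.5), against 2.30% of all pooled summits, and TAATTA at 2 (4.08%), against 5.95%.

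Other genes of segmentation were counted by the same rule, beside the 49.0% of all protein-coding genes. Among 13 gap, head gap, terminal and related genes, 7 had an optimal summit (53.8%), with the strongest at cad (rank 239), a homeodomain activator of posterior patterning, and fkh (rank 263), a forkhead gene of the gut and salivary gland. The gap and terminal genes hb, Kr, gt, tll and hkb, which act upstream of the pair-rule genes, had none, and neither did the head gap gene btd. The gap gene kni did have one, at rank 398. The others of this list with one were cnc (best rank 384), ems (1225), oc (2110) and knrl (4213). The genes of this list other than cad and fkh were chosen for naming after their values had been seen. Among 11 segment polarity genes, several of them targets of pair-rule proteins, 10 had one (90.9%), led by ptc (rank 147), the Hedgehog receptor, and inv (rank 230), a homeobox gene beside its paralogue. Their median number of summits was 1, as for the pair-rule genes. Among 6 genes for partner proteins, 5 had one, led by ftz-f1 (rank 444), the nuclear receptor that binds DNA with Ftz, and CtBP (rank 848), a corepressor. Bro and Bgb, genes for partners of Runt, were both counted through a single peak (rank 1026), whose nearest protein-coding start was that of CG13919, 81 bp away. Among 7 paralogues of pair-rule genes, 3 had one, led by bowl (rank 368) and drm (rank 1115), both of the odd family. Among 5 further targets and effectors, all had one, led by Blimp-1 (rank 71), a zinc-finger repressor, and Tollo (rank 1746), a Toll-family receptor of axis elongation. The Blimp-1 summit lay 123 bp from the start of lin-28, which was its nearest protein-coding start. These lists differ in gene length and spacing, and nothing was tested on them.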

How the data were processed

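Grain ChIP-seq peak lists on dm6 were used, 1 per replicate, 1 pooled and 1 optimal. Per the file descriptions deposited with the samples, each replicate list rests on the alignments of its own replicate with a control, the pooled list from all 3 replicates, and the optimal list from an irreproducible discovery rate procedure. How reads were aligned and peaks were called is not given in the sources used here. The authors give each peak a signal, on a scale that is not stated and set separately per list, a −log10 q-value capped at 4.21 in the pooled list, which all 8 optimal peaks and 22.4% of the 49 pooled peaks reached (27.3% of all pooled peaks did), and an offset from which the deposited summit position was taken. Signal served only to rank peaks within a list, and ranks in replicates are those of the strongest peak overlapping by at least 1 bp. Read counts were not used here, so depth is unknown and no floor is given.

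Genes and start sites of any transcript came from Ensembl release 115 and bases from RefSeq release 6 of the genome, with transposable elements left out. Motifs were searched on both strands in 101 bases around summits and in windows 500 bp to the right. Shares have Wilson 95% intervals. The only test was an exact sign-flip permutation test over the 3 replicates. Nothing in the labels says whether the replicates were separate embryo collections beyond calling them biological, and p-values measure the spread between them. Python 3.11.15, NumPy 2.4.6, pandas 2.3.3, SciPy 1.17.1 and matplotlib 3.10.9 were used, and the counting of summits and motifs was tested on simulated data. The members and lists were chosen with earlier results of these data known. Genes named are the 8 members, up to 3 optimal peaks of each, the 2 genes with the strongest optimal peak of each list and the nearest protein-coding genes that are no members. Weaker member peaks, Scr, Antp, Bro, Bgb, the genes of the gap and terminal list other than cad and fkh, and the octamer GGTCACAC were added after their values had been seen. Alternatives covered the window, the list, the replicates, the motif distance, the flank and the overlap. Lists on dm3 were not used here, and no coordinates were converted.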

Additional observations from a re-analysis of the deposited data

How the results depend on the processing

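With 1000 bp either side of the genes, 3 genes had an optimal summit (29.3% of all protein-coding genes did) and 3 summits were counted. Among the 3290 strongest optimal peaks 5 summits remained at the 8 genes, and the whole pooled list gave 8 genes and 49 summits. Keeping only optimal peaks among the strongest 6580 of both other replicates, with each replicate left out in turn, left 5 to 7 summits (5 without replicate 1 or without replicate 3, 7 without replicate 2) at 4 genes each time, of which 0 to 14.3% lay within 500 bp of a start site. Among the strongest 13160 peaks of each replicate, 87.5% of the 8 optimal peaks overlapped a peak in all 3, against 94.5% of the other optimal peaks; with the strongest 6580 the shares were 62.5% and 67.8%. The share of protein-coding genes with an optimal summit was 52.8%, 27.3% and 31.9% in the sets by length, by isolation and by both, which were added after seeing the data. Of the alternative values for the main counts and shares, 38 stayed within the set limits and 13 moved beyond them. The limits were wide: the share among the strongest of all 3 replicates was 33.3% with 1000 bp either side and still within them. Counts and shares cannot change sign, and the difference between summit and flank, which could, did not. The hexamer share was 28.6 to 50% over its alternatives apart from the pooled list, where it was 26.5%. The summit stayed above the flank throughout, but the size of the difference varied around the main 31.7 points. It was 8.83 points over the whole pooled list, 16.2 points with 1000 bp either side and 42.2 points in the stronger part of the optimal list. For the 5 genes with an optimal summit, the rank of the strongest peak in the window was also taken anew in each replicate. Of these 15 replicate ranks, 5 moved by more than their SD, all in replicate 2. At run the peak taken in replicates 2 and 3 (ranks 9967 and 5715) was the intronic one, not the strongest pooled peak. No paired analysis was possible because the series has a single group. Depth is unknown, the pooled and optimal lists come from the same replicates, and 8 genes limit every share.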
